A study of Mus musculus with 12 samples.

Results

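The genes described here encode proximal parts of T cell receptor signalling and T cell surface adaptors: the kinases Lck, Fyn, Zap70 and Prkcq, the scaffolds Lat and Lcp2, and the surface proteins Cd2, Cd5 and Cd6. They were taken by name, and all 9 were found among the 55413 genes of the deposited tables. Bulk RNA sequencing was done on regulatory T cells (Treg cells, suppressive T cells marked by the factor Foxp3) sorted from Hepa1-6 tumors and from lymph nodes. Hepa1-6 is a mouse hepatoma line. The groups are named by their titles: tumor pTreg (3 libraries), tumor tTreg (5 libraries) and lymph node Treg, total Treg cells of tumor-free mice (4 libraries). In the field, tTreg are Treg cells made in the thymus and pTreg those that form from conventional CD4 T cells in the periphery; the gates that split them in the tumor are not given in the sources used here. For the tumor groups, tTreg cells of CD45.1 Foxp3YFP-cre donors, Foxp3- CD4 T cells of CD45.2 Foxp3YFP-cre donors and CD8 T cells of that second donor were given together to TCRbd-/- hosts, at 1 to 10 to 8 parts. The hosts lack T cells of their own. Tumor cells were inoculated 3 days after transfer and Treg cells were sorted on day 18 after inoculation. All 12 libraries carry the genotype label Foxp3YFP-cre and TCRbd-/- mice, and ages and the number of animals behind a library are not given in the sources used here. Replicates are labelled as separate samples only, so the p-values rest on library-to-library spread, part of which may be technical.

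In a T cell, the kinase Lck, helped by its relative Fyn, phosphorylates the CD3 and zeta chains of the antigen receptor. Zap70 docks there and phosphorylates the membrane scaffold Lat and the cytosolic adaptor SLP-76 (Lcp2), which assemble the enzymes that raise calcium and activate protein kinase C theta (Prkcq). Cd2 is an adhesion and costimulatory receptor that binds Cd48 in mice, Cd5 dampens receptor signals, and Cd6 binds Alcam. Treg cells need this pathway for their suppressive function. Several of the genes are not confined to T cells: Fyn and Lcp2 are also expressed by myeloid cells and platelets, Lat by mast cells and platelets, and Cd5 by a subset of B cells.

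Depth was 17964262 to 18180959 counts in tumor pTreg, 18107272 to 18510923 counts in tumor tTreg and 14573864 to 17323894 counts in lymph node Treg. Transcripts of T cells took very unequal shares of these libraries. The CD3 chains Cd3d, Cd3e, Cd3g and Cd247 summed to 253.2 ± 6.34 CPM (counts scaled to a common library total) in tumor pTreg, 21.59 ± 1.71 in tumor tTreg and 1247 ± 9.98 in lymph node Treg (SD, n = 3, 5 and 4). The 4 Treg markers Foxp3, Ikzf2, Il2ra and Ctla4 were detected in every group and summed to 250.8 to 259.8 CPM in tumor pTreg, 73.3 to 76.5 in tumor tTreg and 2393 to 2490 in lymph node Treg. Foxp3 alone read 20.3 ± 0.583, 8.74 ± 0.478 and 440.8 ± 11.1 CPM in that order, and Ctla4 130 ± 1.3, 26.3 ± 1.34 and 476.1 ± 14.1. Foxp3 thus kept no constant ratio to the CD3 chains over the groups. Whether the CD3 counts come from Treg cells alone was not tested. All 10 macrophage and monocyte markers were detected, at 9692 to 9728, 9398 to 9972 and 48.3 to 57.4 CPM in the same order of groups. Hepatoma and hepatocyte markers (8 of 9 detected in each group) summed to 5339 to 5713 CPM in tumor pTreg, 7882 to 8226 in tumor tTreg and 7.44 to 9.53 in lymph node Treg. The part of these other cells in the results below was not tested. In such bulk libraries fewer T cells and less RNA per T cell cannot be told apart.

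The windows around annotated starts are shown for 5 of the genes because their levels parted in the comparisons that follow: Lck and Lat differed least from the CD3 chains, Prkcq fell furthest, Lcp2 fell least, and Cd5 followed Ets1 across libraries. Sequences are from RefSeq (GRCm38.p6), run 5′ to 3′ on the gene's strand from 250 bases before to 50 bases after the start, and were found for 7 of 9 genes (not Cd2 and Cd6). Capitals mark short cores bound by transcription factors, read on both strands. The core AGGAAG is that of the ETS family of factors. The core TGTGGT is that of the RUNX family of factors. The core AGATAA is that of the GATA family of factors. The core CTTTGA is that of the related factors TCF1 and LEF1. The Lck window is the more upstream of 2 annotated starts (chr4:129573592-129573891, minus strand), and the others lie at chr7:126369519-126369818 (Lat, minus), chr2:11172132-11172431 (Prkcq, plus), chr11:34046678-34046977 (Lcp2, plus) and chr19:10738925-10739224 (Cd5, minus).
Lck: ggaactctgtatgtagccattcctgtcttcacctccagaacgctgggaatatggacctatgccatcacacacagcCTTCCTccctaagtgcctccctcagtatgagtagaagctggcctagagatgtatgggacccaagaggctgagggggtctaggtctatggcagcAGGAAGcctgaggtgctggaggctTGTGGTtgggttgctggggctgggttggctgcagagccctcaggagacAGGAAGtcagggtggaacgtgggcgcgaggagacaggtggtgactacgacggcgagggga
Lat: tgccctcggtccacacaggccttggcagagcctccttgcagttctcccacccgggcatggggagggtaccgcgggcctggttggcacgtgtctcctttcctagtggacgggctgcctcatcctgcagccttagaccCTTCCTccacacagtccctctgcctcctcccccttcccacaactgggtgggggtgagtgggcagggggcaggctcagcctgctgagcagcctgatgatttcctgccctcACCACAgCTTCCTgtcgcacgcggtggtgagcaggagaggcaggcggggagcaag
Prkcq: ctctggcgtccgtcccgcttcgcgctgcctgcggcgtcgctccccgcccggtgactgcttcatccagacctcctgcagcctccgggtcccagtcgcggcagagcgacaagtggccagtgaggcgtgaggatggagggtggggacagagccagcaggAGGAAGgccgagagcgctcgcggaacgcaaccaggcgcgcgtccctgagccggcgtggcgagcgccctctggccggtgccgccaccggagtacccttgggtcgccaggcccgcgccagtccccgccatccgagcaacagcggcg
Lcp2: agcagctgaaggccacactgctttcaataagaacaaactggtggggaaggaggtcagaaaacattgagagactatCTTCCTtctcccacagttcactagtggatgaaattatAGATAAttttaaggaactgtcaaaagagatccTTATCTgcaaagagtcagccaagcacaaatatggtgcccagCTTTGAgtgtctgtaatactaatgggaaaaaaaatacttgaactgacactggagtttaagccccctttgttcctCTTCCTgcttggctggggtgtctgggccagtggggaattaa
Cd5: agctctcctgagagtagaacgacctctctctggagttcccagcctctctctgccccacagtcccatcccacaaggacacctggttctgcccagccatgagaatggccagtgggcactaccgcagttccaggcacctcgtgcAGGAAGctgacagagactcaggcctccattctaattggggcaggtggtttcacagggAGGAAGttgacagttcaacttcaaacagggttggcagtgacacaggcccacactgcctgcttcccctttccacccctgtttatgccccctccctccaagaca

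The AGGAAG letters stood in 8 of the 10 windows of the 7 genes, against 35.4% of all 32851 windows of that length. TGTGGT stood in 3 windows (16.8% of all windows), CTTTGA in 3 (16.0%) and AGATAA in 1 (11.2%), that of Lcp2, which holds it at 2 positions. The Prkcq and Fyn windows were rich in CpG, with 37 and 31 CpG dinucleotides and 73.0 and 69.0% GC, whereas the Lcp2 window held 0 CpG and 43.3% GC. The median window had 7 CpG and 52.7% GC. A match of letters is a description of the window and not a binding site, and gene-level counts do not tell which start was used.

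Relative to the whole library, all 9 genes were highest in lymph node Treg, intermediate in tumor pTreg and lowest in tumor tTreg. Their groups did not overlap, but the share of all genes tested whose groups part in this way was not counted. Their CPM summed to 973.5 to 999.7 in tumor pTreg, 236.6 to 247.5 in tumor tTreg and 4191 to 4271 in lymph node Treg. All 9 were called higher in tumor pTreg than tumor tTreg (26.8% of the 15705 genes tested were called higher, 25.3% lower and 52.1% either way), with a median log2 fold change of 3.24 against -0.01 over all genes tested. All 9 were called lower in tumor pTreg than in lymph node Treg (39.8% of genes were lower, 47.6% higher and 87.5% either), with a median of -2.08 against 0.12. Tumor tTreg likewise had all 9 lower than lymph node Treg (42.3% of genes were lower, 48.1% higher and 90.3% either), at a median of -5.13 against 0.10. The comparisons share groups and are given side by side. Scaled to the receptor constant regions in place of the whole library, tumor pTreg had 132 genes above and 15133 below tumor tTreg, against 4204 and 3980 here, and 14614 and 460 (tumor pTreg) or 15200 and 161 (tumor tTreg) against lymph node Treg, against 7482 and 6253 or 7550 and 6637. Calls were made by the edgeR quasi-likelihood test with Benjamini-Hochberg adjustment at 0.05.

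**Figure D1:**
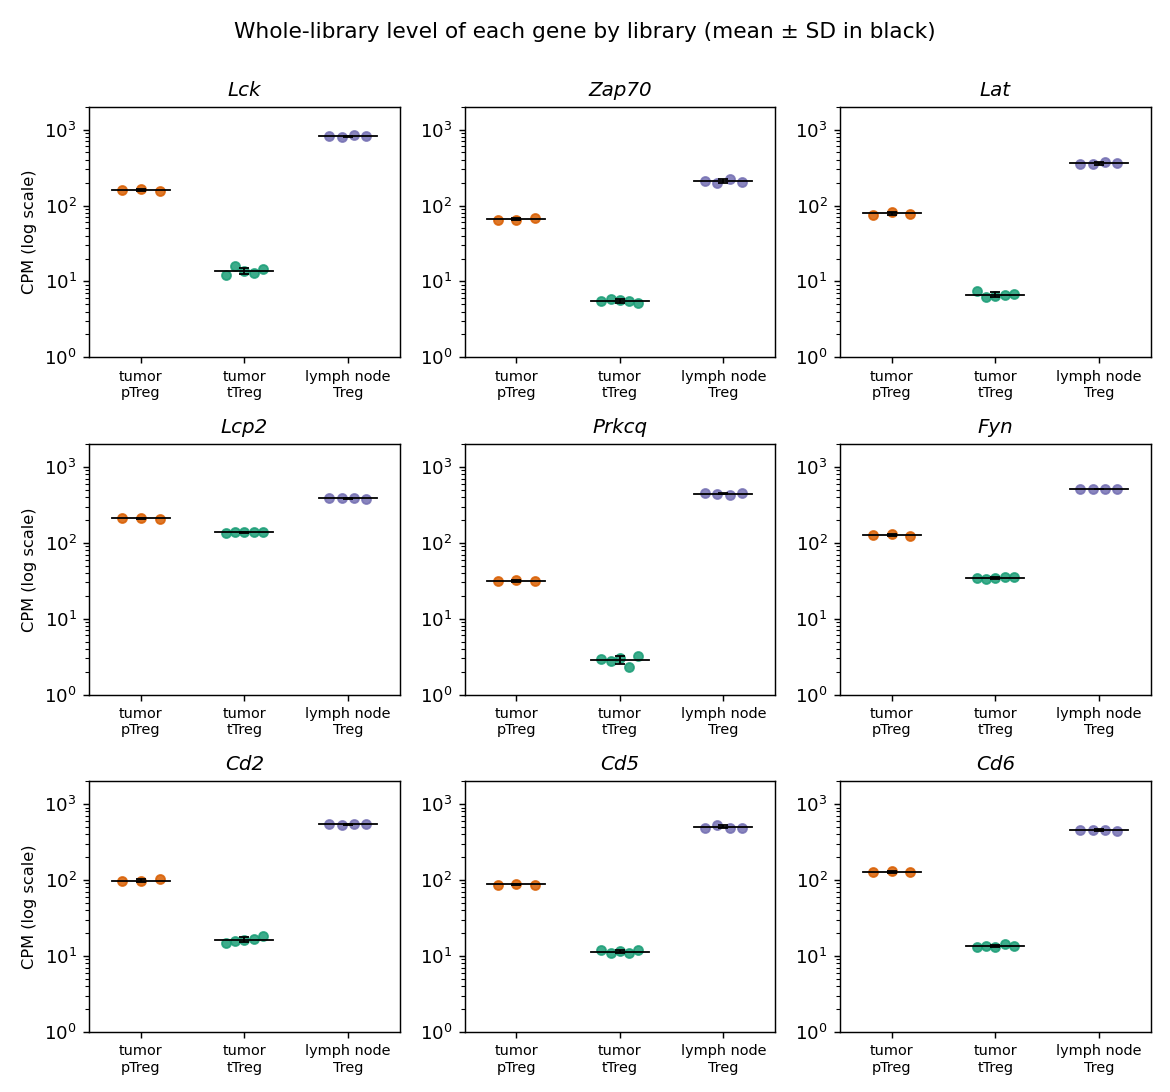
CPM of each gene (log axis) in each of 12 libraries, by group, with the group mean and SD in black. In every panel the tumor pTreg libraries lie above the tumor tTreg libraries, and both lie below lymph node Treg. Lcp2 spans the narrowest range (134.2 to 394.2 CPM) and Prkcq the widest (2.30 to 455.8 CPM).

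Lck (chromosome 4, 129548344 to 129573641, minus strand) starts the phosphorylation cascade. It read 159.5, 162.8 and 155.0 CPM in the tumor pTreg libraries, against 12.2, 15.7, 13.8, 13.1 and 14.6 CPM in tumor tTreg and 818.6, 798.6, 841.7 and 815.8 CPM in lymph node Treg. The groups were set widely apart, and the log2 fold change was 3.53 (standard error 0.0466, adjusted p = 1.45e-29) for tumor pTreg against tumor tTreg. Against lymph node Treg it was -2.26 in tumor pTreg and -5.79 in tumor tTreg. Its relative Fyn (chromosome 10, 39368855 to 39565381, plus strand) read 125.6, 130.2 and 124.4 CPM in the tumor pTreg libraries, against 34.5, 33.1, 34.8, 35.3 and 35.6 CPM in tumor tTreg and 511.2, 513.5, 515.3 and 507.5 CPM in lymph node Treg. Fyn differed less between the groups than Lck did, at log2 fold changes of 1.88, -1.91 and -3.79 in those 3 comparisons.

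Zap70 (chromosome 1, 36761798 to 36782818, plus strand) is the kinase recruited to the phosphorylated receptor. It read 64.4, 65.3 and 67.9 CPM in the tumor pTreg libraries, against 5.47, 5.96, 5.67, 5.48 and 5.19 CPM in tumor tTreg and 208.7, 195.4, 226.2 and 203.4 CPM in lymph node Treg. This was the least lowered of the kinases in tumor pTreg against lymph node Treg (log2 fold change -1.56), and 11.9-fold higher in tumor pTreg than in tumor tTreg (adjusted p = 7.03e-27). Prkcq (chromosome 2, 11172108 to 11301222, plus strand), which carries the signal toward NF-kB, stood at the other end. It read 30.9, 32.6 and 30.9 CPM in the tumor pTreg libraries, against 2.96, 2.79, 3.03, 2.30 and 3.20 CPM in tumor tTreg and 455.8, 444.6, 428.1 and 450.2 CPM in lymph node Treg. Prkcq was 13.1-fold lower in tumor pTreg than in lymph node Treg (log2 fold change -3.72, standard error 0.0393) and 145-fold lower in tumor tTreg (-7.18, standard error 0.0471). In the tumor tTreg libraries Prkcq rests on few reads, 42 to 58 counts per library.

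Lat (chromosome 7, 126363824 to 126369570, minus strand) is the membrane scaffold on which the signal complex forms. It read 75.5, 83.0 and 77.5 CPM in the tumor pTreg libraries, against 7.44, 6.23, 6.48, 6.68 and 6.74 CPM in tumor tTreg and 349.4, 350.6, 375.6 and 358.3 CPM in lymph node Treg. Lat followed Lck closely, with log2 fold changes of 3.56, -2.08 and -5.64 in the 3 comparisons in the order used above. Its partner Lcp2 (chromosome 11, 34046920 to 34092295, plus strand) did not. Lcp2 read 211.6, 210.3 and 204.2 CPM in the tumor pTreg libraries, against 134.2, 138.3, 137.2, 137.6 and 138.7 CPM in tumor tTreg and 386.6, 394.2, 387.3 and 377.8 CPM in lymph node Treg. The groups did not overlap, but the log2 fold changes were small beside the others, at 0.61 (standard error 0.0280), -0.78 and -1.40. An antisense gene, 4930469K13Rik, shares 282 exonic bases with Lcp2 in GENCODE vM21 and had 0 or 1 count in each library.

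Among the surface receptors, Cd2 (chromosome 3, 101275899 to 101287939, minus strand) read 97.3, 95.5 and 101.9 CPM in the tumor pTreg libraries, against 14.7, 15.6, 16.2, 16.9 and 18.1 CPM in tumor tTreg and 542.6, 524.8, 546.4 and 546.2 CPM in lymph node Treg. Its log2 fold changes were 2.60, -2.35 and -4.95. Cd5 and Cd6 lie on chromosome 19, both on the minus strand, with 50.3 kb and 0 protein-coding genes between them (10717116 to 10739002 and 10789341 to 10830058). Cd5 read 86.7, 89.7 and 85.7 CPM in the tumor pTreg libraries, against 11.9, 10.8, 11.6, 10.8 and 11.8 CPM in tumor tTreg and 486.6, 533.4, 490.8 and 490.2 CPM in lymph node Treg. Cd6 read 126.7, 130.4 and 125.8 CPM in the tumor pTreg libraries, against 13.2, 13.4, 13.2, 14.2 and 13.6 CPM in tumor tTreg and 458.8, 458.4, 459.7 and 441.5 CPM in lymph node Treg. No groups overlapped for either gene. Against lymph node Treg, the log2 fold changes of Cd5 were -2.41 (tumor pTreg) and -5.36 (tumor tTreg). Cd6 was the less lowered of the pair, at -1.73 and -4.97.

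Levels of different genes can be set beside each other per transcript length, as FPKM (fragments corrected for the length of the transcript and for depth). In lymph node Treg the order was Cd2 (647.7 ± 15.4 FPKM), Lck, Lat, Cd5, Fyn, Cd6, Prkcq (151.2 ± 4.74), Lcp2 (143.0 ± 4.60) and Zap70, and only the ranges of Prkcq and Lcp2 overlapped among neighbours. In tumor pTreg Cd2 (117.6 ± 3.99 FPKM), Lck and Lat again led, Lcp2 came next (75.7 ± 3.97), and Prkcq was last (10.4 ± 0.391). Fyn and Cd5 overlapped there. In tumor tTreg Lcp2 led at 49.3 ± 0.758 FPKM, ahead of Cd2 (19.6 ± 1.66) and Fyn (15.2 ± 0.924), and Prkcq was again last at 0.964 ± 0.191. Lck, Lat and Cd5 (7.38 to 8.54 FPKM on average) overlapped in that order. Lcp2 made up 12.2 to 13.2% of the summed FPKM of the 9 genes in tumor pTreg, 40.9 to 43.0% in tumor tTreg and 5.04 to 5.49% in lymph node Treg, and Prkcq 1.69 to 1.79%, 0.643 to 1.00% and 5.25 to 5.75%.

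**Figure D2:**
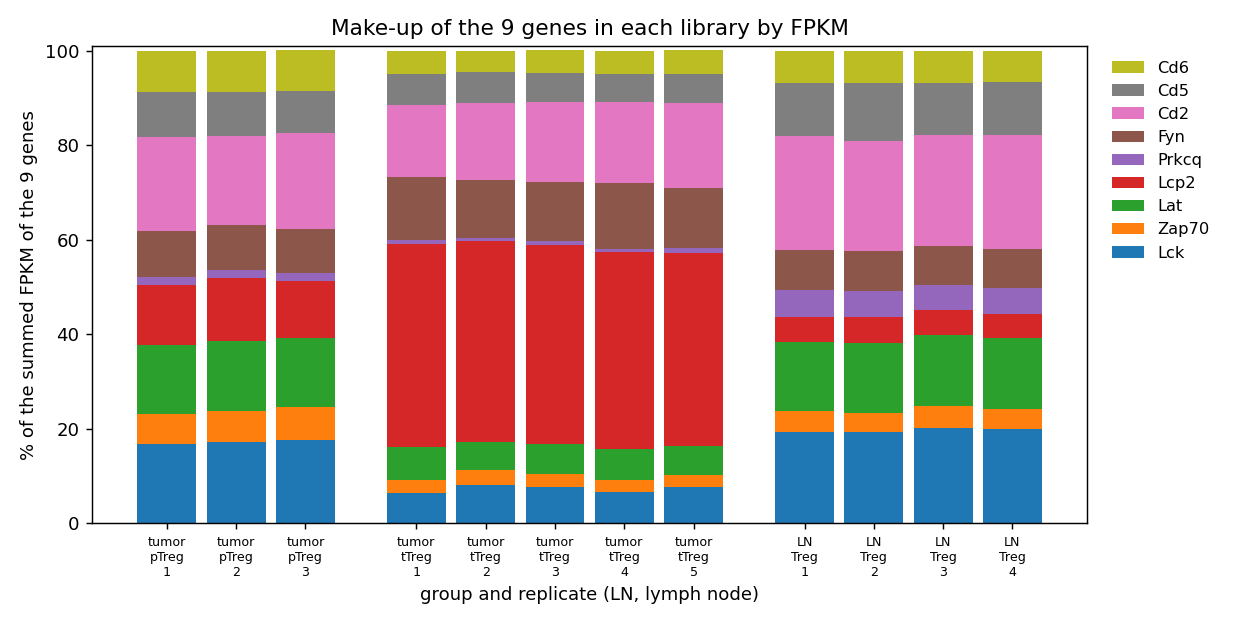
Each bar is 1 library and shows the share of each gene in the summed FPKM of the 9 genes. Lcp2 takes 40.9 to 43.0% of the bar in tumor tTreg against 5.04 to 5.49% in lymph node Treg, and the Prkcq band is thinnest in tumor tTreg.

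How did each gene move relative to the T cell receptor itself? Counts were divided by the summed counts of the CD3 chains of the same library, which were 4461 to 4707 in tumor pTreg, 353 to 430 in tumor tTreg and 18209 to 21787 in lymph node Treg. The counting error of that sum was 1.46 to 1.5%, 4.82 to 5.32% and 0.677 to 0.741%, and it is not part of the model. As a gauge, the CD3 chains themselves differed from their own sum by log2 fold changes of -0.41 to 0.21. On this scale 91.4% of all genes tested were higher in tumor pTreg than in lymph node Treg and 97.1% in tumor tTreg (95.3% and 97.9% were called either way). The 9 genes were split, with 4 higher, 3 lower and 2 not called in tumor pTreg, and 6 higher, 1 lower and 2 not called in tumor tTreg.

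Zap70 and Prkcq moved in opposite directions in the tumor relative to CD3. Zap70 had 25.7, 26.3 and 26.1 counts per 100 CD3 counts in the tumor pTreg libraries, against 25.6, 30.9, 24.7, 23.3 and 25.0 in those of tumor tTreg and 16.9, 15.6, 18.0 and 16.3 in lymph node Treg. Both tumor groups lay above lymph node Treg without overlap, by log2 fold changes of 0.64 (standard error 0.0786, adjusted p = 1.74e-15) and 0.62 (0.0940, adjusted p = 5.28e-11), and they overlapped each other. Prkcq had 12.3, 13.1 and 11.9 counts per 100 CD3 counts in the tumor pTreg libraries, against 13.8, 14.5, 13.2, 9.77 and 15.4 in those of tumor tTreg and 37.0, 35.6, 34.0 and 36.1 in lymph node Treg. It was 2.87-fold lower in tumor pTreg than in lymph node Treg (log2 fold change -1.52, adjusted p = 3.86e-62) and 2.69-fold lower in tumor tTreg (-1.43, adjusted p = 2.52e-39). Lower genes were 3.87 and 0.783% of all genes tested in these comparisons. Higher genes were 91.4 and 97.1%, with medians over all genes of 2.31 and 5.86, so Zap70 stood below the median gene in both. Against 4 yardsticks (the CD3 chains, the CD3 chains without Cd247, the constant regions Trac, Trbc1 and Trbc2, and Trbc2 alone) Prkcq stayed lower in both tumor groups, at -1.52 to -0.86 and -1.71 to -0.83. Zap70 stayed higher, at 0.638 to 1.302 in tumor pTreg and 0.35 to 1.23 in tumor tTreg.

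Lck and Lat differed least relative to CD3. Lck had 63.6, 65.6 and 59.5 counts per 100 CD3 counts in the tumor pTreg libraries, against 56.8, 81.6, 60.0, 55.6 and 70.2 in those of tumor tTreg and 66.4, 63.9, 66.9 and 65.4 in lymph node Treg, and the groups overlapped. Its log2 fold change against lymph node Treg was -0.06 in tumor pTreg (95% interval -0.21 to 0.09, adjusted p = 0.42) and -0.02 in tumor tTreg (-0.18 to 0.13, adjusted p = 0.751). Lat had 30.1, 33.4 and 29.8 counts per 100 CD3 counts in the tumor pTreg libraries, against 34.8, 32.3, 28.2, 28.4 and 32.5 in those of tumor tTreg and 28.3, 28.1, 29.9 and 28.7 in lymph node Treg, with log2 fold changes of 0.11 (95% interval -0.04 to 0.27) and 0.12 (-0.06 to 0.29). Neither was called, though other yardsticks moved them: against Trbc2 alone Lck read 0.60 and 0.58 and Lat 0.78 and 0.72, all called, while against the constant regions Lck read 0.25 and -0.30, both called.

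Lcp2 and Fyn were higher relative to CD3 in both tumor groups than in lymph node Treg, though less so than the median gene tested, which stood at 2.31 in tumor pTreg and 5.86 in tumor tTreg on the log2 scale. Lcp2 had 84.3, 84.7 and 78.4 counts per 100 CD3 counts in the tumor pTreg libraries, against 627.1, 717.3, 597.6, 584.4 and 667.8 in those of tumor tTreg and 31.3, 31.6, 30.8 and 30.3 in lymph node Treg. Every tumor library lay above every lymph node library, with log2 fold changes of 1.41 in tumor pTreg and 4.37 in tumor tTreg against lymph node Treg. Fyn had 50.04, 52.4 and 47.8 counts per 100 CD3 counts in the tumor pTreg libraries, against 161.4, 171.7, 151.5, 149.8 and 171.5 in those of tumor tTreg and 41.4, 41.1, 41.0 and 40.7 in lymph node Treg (log2 fold changes 0.29 and 1.97). Macrophage markers stood at 9713 ± 18.7 CPM in tumor pTreg, 9738 ± 214 in tumor tTreg and 52.8 ± 4.23 in lymph node Treg, led by Apoe, which hepatocytes also express, and Lyz2. Platelet markers stood at 72.1 ± 2.25, 77.6 ± 5.09 and 2.44 ± 0.129 CPM. Nearly all of this in the tumor groups was Pf4 (63.0 ± 1.26 CPM in tumor pTreg, 68.9 ± 5.18 in tumor tTreg) and Ppbp (8.28 ± 0.893 and 7.86 ± 0.292). Gp1bb had 0 counts in tumor pTreg and lymph node Treg. The part of macrophages and platelets in the levels of Lcp2 and Fyn was not tested.

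The surface receptors lay between. Cd2 had 38.8, 38.4 and 39.2 counts per 100 CD3 counts in the tumor pTreg libraries, against 68.8, 81.0, 70.6, 71.6 and 87.2 in those of tumor tTreg and 44.0, 42.0, 43.4 and 43.8 in lymph node Treg. Only the tumor tTreg value was higher than lymph node Treg (log2 fold change 0.81), while tumor pTreg was slightly lower (-0.16, adjusted p = 0.0419), a call lost without any 1 of 6 libraries (adjusted p = 0.0715 to 0.105) and turned against the constant regions (0.16). Cd5 showed the same order, at 34.5 ± 1.59 in tumor pTreg, 52.9 ± 4.66 in tumor tTreg and 40.1 ± 1.73 in lymph node Treg, with log2 fold changes against lymph node Treg of -0.22 and 0.40. The first of these was lost without tumor pTreg replicate 3 (adjusted p = 0.0508), and it turned to 0.10 (not called) on the constant regions and to 0.45 (called higher) on Trbc2. The second was not called on the constant regions (0.12, adjusted p = 0.102). Cd6 was higher than lymph node Treg in both, with 50.4 ± 2.08 counts per 100 CD3 counts in tumor pTreg, 63.0 ± 4.56 in tumor tTreg and 36.5 ± 0.769 in lymph node Treg (log2 fold changes 0.47 and 0.79). It kept that direction against all 4 yardsticks, at 0.47 to 1.13 and 0.51 to 1.39. Per CD3 count, Cd2, Cd5 and Cd6 all lay below the median gene tested, which stood at 2.31 in tumor pTreg and 5.86 in tumor tTreg. Single CD3 chains departed from their sum by -0.24 to 0.20 in tumor pTreg against lymph node Treg, a span that holds the changes of Cd2 and Cd5 there, and by -0.34 to 0.18 in tumor tTreg.

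**Figure D3:**
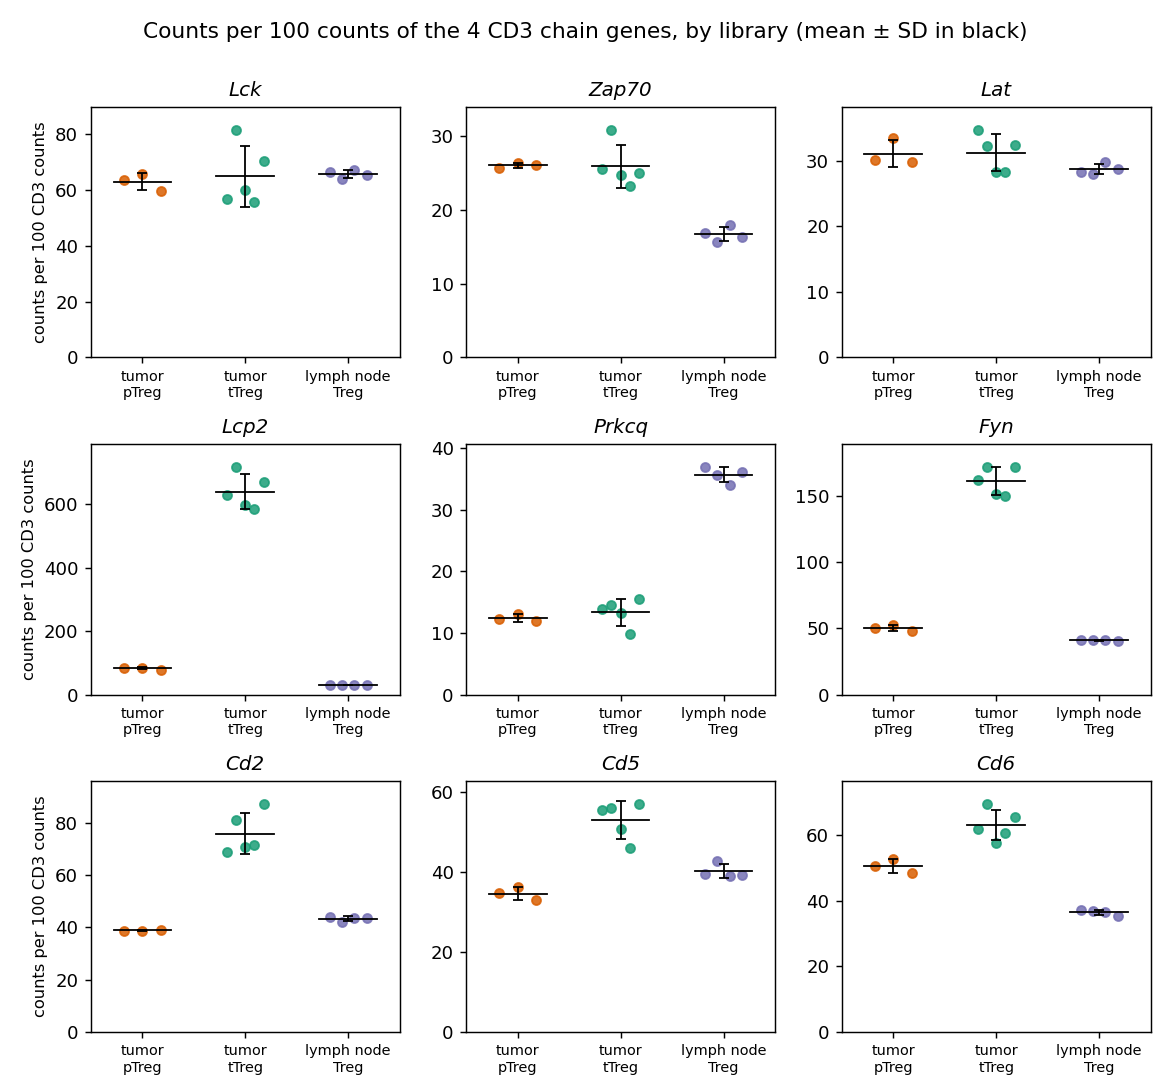
Counts of each gene per 100 counts of the CD3 chains in each library (linear axes that start at 0), with mean and SD in black. Lck and Lat overlap across all groups, Prkcq is lower and Zap70 higher in both tumor groups than in lymph node Treg, and Lcp2 and Fyn are highest in tumor tTreg.

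Between the tumor groups 0 of the 9 genes were higher in tumor pTreg relative to CD3 and 5 were lower, against 0.388% of all genes tested higher, 97.5% lower and 97.8% either way. The 5 were Lcp2 (log2 fold change -2.95), Fyn (-1.68), Cd2 (-0.96), Cd5 (-0.61) and Cd6 (-0.32). Lck (-0.04, 95% interval -0.20 to 0.13), Lat (-0.0026, -0.19 to 0.18), Zap70 (0.01, -0.18 to 0.21) and Prkcq (-0.09, -0.32 to 0.15) were not called. Against the constant regions Lck, Zap70, Lat, Prkcq and Cd6 were instead called higher in tumor pTreg (0.28 to 0.61), Cd5 was not called, and Lcp2, Fyn and Cd2 stayed lower. The CD8 chains, which mark cells that also carry these genes, summed to 32.8 ± 1.83 CPM in tumor pTreg, 1.104 ± 0.152 in tumor tTreg and 21.0 ± 2.10 in lymph node Treg. Singly, Cd8a read 23.6 ± 0.942, 0.667 ± 0.186 and 8.24 ± 1.13 CPM in that order of groups. Cd8b1 read 9.22 ± 0.902, 0.438 ± 0.160 and 12.8 ± 1.65 CPM. The part of CD8 T cells in the comparison was not tested.

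**Figure D4:**
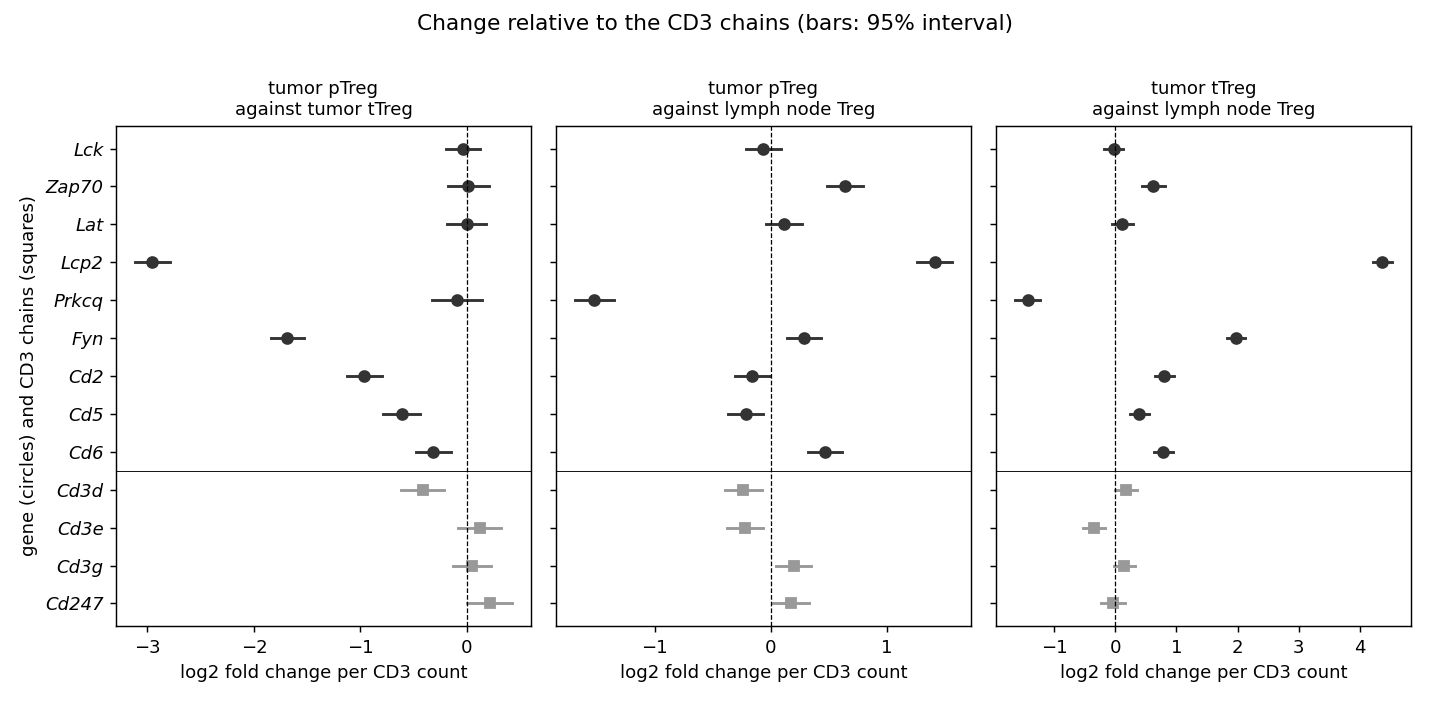
Log2 fold changes per CD3 count with 95% intervals, for the 9 genes (circles) and the CD3 chains themselves (squares), in the 3 comparisons. The intervals of Lck and Lat include 0 in each panel. Prkcq is at -1.52 and -1.43 against lymph node Treg, and Lcp2 reaches 4.37 in tumor tTreg.

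Some of the genes have counterparts that do the same step in B cells or myeloid cells: Syk for Zap70, Lat2 for Lat and Blnk for Lcp2. Shares of FPKM were compared within these pairs. They were also compared within the pairs of relatives Lck and Fyn, and Prkcq and Prkcd. Where other cells hold 1 gene of a pair, its share also depends on how much T cell RNA the library holds. The CD3 chains stood at 253.2 ± 6.34 CPM in tumor pTreg, 21.59 ± 1.71 in tumor tTreg and 1247 ± 9.98 in lymph node Treg. The part of this difference in the shares was not tested. Fyn made up 35.5 ± 1.26% of Lck + Fyn in tumor pTreg, 64.0 ± 3.41% in tumor tTreg and 29.8 ± 0.633% in lymph node Treg, so Lck had the smaller share of the pair in tumor tTreg alone. Syk, the counterpart of Zap70, made up 55.4 ± 1.23, 94.5 ± 0.581 and 2.54 ± 0.196% of the pair in the same groups. Lat2, the counterpart of Lat, made up 24.0 ± 0.622, 79.5 ± 1.46 and 0.768 ± 0.391%. Blnk, the B cell counterpart of Lcp2, made up 17.3 ± 0.731, 26.6 ± 0.717 and 0.212 ± 0.0563%, and Prkcd, a relative of Prkcq found in many cells, 93.5 ± 0.040, 99.3 ± 0.123 and 30.4 ± 1.02%. In all 5 pairs the groups did not overlap. The exact two-sided permutation p was 0.0179 between the tumor groups, and against lymph node Treg it was 0.0286 in tumor pTreg and 0.00794 in tumor tTreg, in every pair, the smallest these group sizes allow (adjusted over 15 tests 0.0268, 0.0286 and 0.0238). By CPM, Syk stood at 228.1 ± 9.06 in tumor pTreg, against 254.9 ± 6.70 in tumor tTreg. That is a log2 fold change of -0.15 (adjusted p = 6.44e-05). Lat2 read 24.8 ± 1.27 CPM in tumor pTreg, against 24.6 ± 1.13 in tumor tTreg, and was not called. Computed from counts in place of FPKM, the difference between tumor pTreg and tumor tTreg was -20.3 points for Syk, against -39.1 by FPKM, and -9.65 points for Prkcd, against -5.85.

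**Figure D5:**
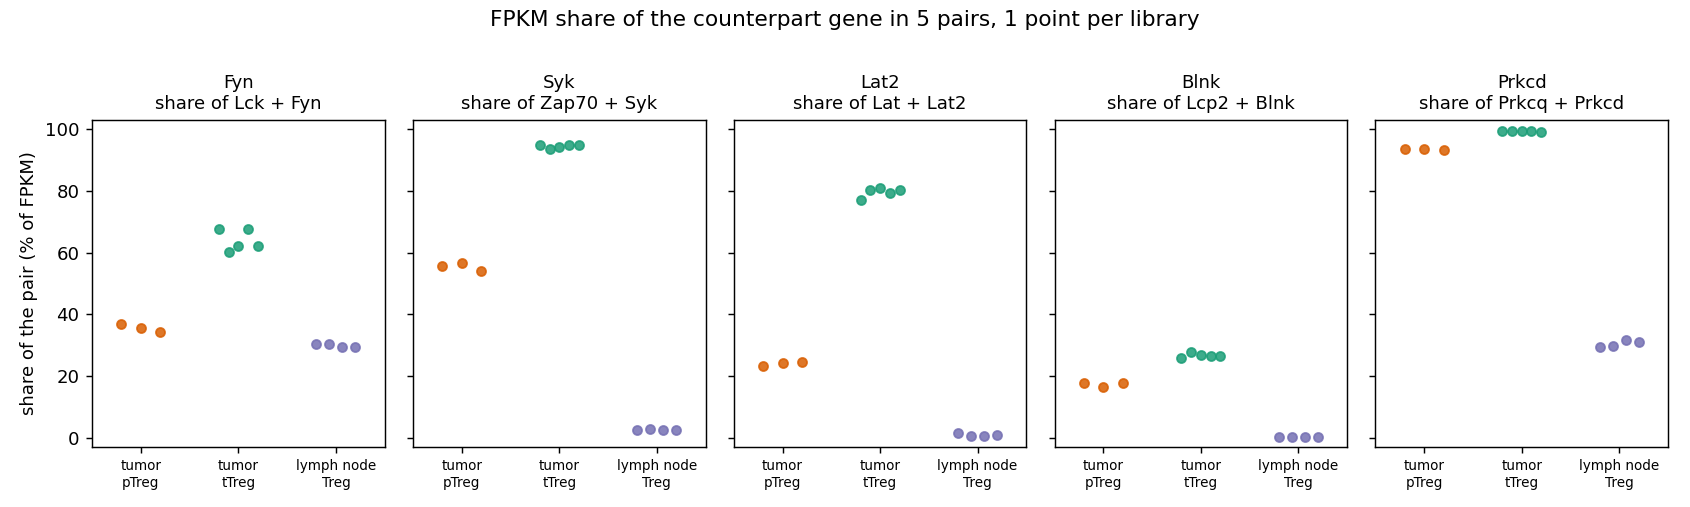
Share of Fyn, Syk, Lat2, Blnk and Prkcd in the FPKM of the pair each forms with Lck, Zap70, Lat, Lcp2 and Prkcq, 1 point per library. The share is highest in tumor tTreg and lowest in lymph node Treg in all 5 panels, and Syk goes up to 95.02% in tumor tTreg against 2.36 to 2.82% in lymph node Treg.

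The rest of the pathway was read from lists. Between the tumor groups, 29 of 35 other activating genes tested were higher in tumor pTreg and 2 were lower, with a median log2 fold change of 0.57 (26.8% of all genes tested were higher and 25.3% lower). Among those with the smallest p were Sh2d2a, an adaptor that binds Lck (3.69), Themis, a Grb2-binding adaptor of T cells (4.90), and Grap2, the adaptor that joins Lat to Lcp2 (3.64). Themis thus differed 29.9-fold, more than any of the 9 genes. Against lymph node Treg 26 were lower and 7 higher in tumor pTreg (median -0.74, and 39.8% of all genes lower), with Trat1 (-3.04), Skap1 (-2.76), Tespa1 (-3.61) and the lipase Plcg1 (-1.66) first. In tumor tTreg 29 were lower and 6 higher than in lymph node Treg (median -1.38, and 42.3% of all genes lower), with Skap1 (-6.10), Trat1 (-5.93) and Grap2 (-5.50) among the first. These counts are relative to the whole library, where all genes tested had medians of -0.01, 0.12 and 0.10. Per CD3 count the balance of the list turned, to the side on which most of all genes tested then lay. Between the tumor groups 2 were higher and 30 lower (median -2.997, against -3.57 over all genes), where 97.5% of all genes were lower. Against lymph node Treg 31 were higher in each tumor group, with 4 lower in tumor pTreg and 3 in tumor tTreg. There 91.4% (tumor pTreg) and 97.1% (tumor tTreg) of all genes were higher.

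Negative regulators moved the same way by count relative to the whole library. All 21 tested were higher in tumor pTreg than in tumor tTreg (median 0.61, against 26.8% of all genes higher), led by the phosphatase Ptpn22 (2.49), the adaptor Lax1 (3.96), Ubash3a, a suppressor of receptor signals (3.49), and the ubiquitin ligase Cblb (1.36). Against lymph node Treg 19 were lower and 0 higher in tumor pTreg (median -1.15), with Dgka, a kinase that removes diacylglycerol, at -2.99, and 21 of 21 were lower in tumor tTreg (median -1.55), where 39.8 and 42.3% of all genes were lower. Per CD3 count 1 was higher and 18 lower between the tumor groups (median -2.95), where 97.5% of all genes were lower (median -3.57). Against lymph node Treg 18 were higher and 3 lower in tumor pTreg, and 19 higher and 2 lower in tumor tTreg. There 91.4% (tumor pTreg) and 97.1% (tumor tTreg) of all genes were higher. Relative to the whole library, the B cell and myeloid counterparts went the other way against lymph node Treg. In both tumor groups 11 of 13 tested were higher and 2 lower. Of all genes, 47.6% (tumor pTreg) and 48.1% (tumor tTreg) were higher. The medians of the 13 were 4.60 in tumor pTreg and 4.68 in tumor tTreg. Lyn, a Src-family kinase of B and myeloid cells, was 45.0-fold and 46.2-fold higher, and Fcer1g, the Fc receptor gamma chain, 272-fold and 288-fold. Between the tumor groups 4 of these 13 were higher and 4 lower (median -0.07), shares near those of all genes (26.8% higher and 25.3% lower). Per CD3 count all 13 were lower between the tumor groups and all 13 higher than in lymph node Treg, as were most genes.

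The 8 genes of ligands and relatives of Cd2, Cd5 and Cd6 split. Cd48, the ligand of Cd2, was 1.55-fold higher in tumor pTreg than in tumor tTreg (adjusted p = 1.69e-12) and lower in tumor tTreg than in lymph node Treg (log2 fold change -1.45). Alcam, the ligand of Cd6, was 4.77-fold higher in tumor pTreg and 4.79-fold higher in tumor tTreg than in lymph node Treg, and was not called between the tumor groups. Slamf1 and Slamf6, homophilic receptors of the Cd2 family, were higher in tumor pTreg than in tumor tTreg (3.14 and 1.07). Over the list 5 were higher and 0 lower between the tumor groups, and 3 were higher and 5 lower against lymph node Treg in both, where 87.5% (tumor pTreg) and 90.3% (tumor tTreg) of all genes were called. Between the tumor groups 26.8% of all genes were higher. Per CD3 count 0 were higher and 8 lower between the tumor groups, where 97.5% of all genes were lower. Against lymph node Treg 7 were higher and 1 lower in tumor pTreg, and 8 of 8 were higher in tumor tTreg. On that scale 91.4% (tumor pTreg) and 97.1% (tumor tTreg) of all genes were higher.

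The genes whose profiles over the 12 libraries were most like each of the 9 were found by the root mean square difference of centred log2(CPM + 0.5) among 8271 candidates. Candidates had a mean of at least 10 CPM in lymph node Treg, the group where all 9 genes were highest. Genes low in that group could therefore not appear. Predicted genes, pseudogenes and T cell receptor segments were also left out. Lck was nearest to Cd3e (0.167) and Cd96 (0.183), Zap70 to Cd28 (0.118) and Lax1 (0.152), and Lat to Cd247 (0.112) and Grap2 (0.137). Prkcq was nearest to Satb1 (0.174) and Bcl11b (0.247), chromatin and transcription factors of T cells. Satb1 averaged 52.2 CPM in tumor pTreg, 4.64 CPM in tumor tTreg and 574.2 in lymph node Treg. Cd5 was nearest to Ets1 (0.0534) and Acap1 (0.0991), Cd6 to Il2rb (0.0798) and Slain1 (0.106), and Cd2 to Gimap4 (0.107) and Nlrc3 (0.146). Ets1 averaged 337.9 CPM in tumor pTreg, 44.3 in tumor tTreg and 1917 in lymph node Treg. Fyn was nearest to Syt11 (0.0761) and Akna (0.0939), and Lcp2 to Mtmr1 (0.0352) and Itpkb (0.0394). With 3 groups of libraries, such likeness is a description.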

How the data were processed

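Bulk RNA sequencing (total RNA, BGISEQ-500) of 12 mouse Treg libraries was read from deposited tables, one of expected counts and one of FPKM. Both were made by the authors with STAR 2.7.11a and RSEM 1.3.3 on GRCm38/mm10, per the submitters' processing notes; DESeq2 is also named there, and which annotation was used is not given in those sources. The deposited expected counts are whole numbers, so rounding before the tests changed nothing. The deposited FPKM relates fragments to transcript length and to depth.

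Genes that passed filterByExpr (15705 of 27279 with any count) were tested with the edgeR 4.0.16 quasi-likelihood F test (R 4.3.3, TMM, group only, all 12 libraries, Benjamini-Hochberg). A second fit replaced library size by the summed counts of the CD3 chains. Both fits were tested on simulated data in which few genes changed. There the second fit was given the true library sizes. Neither the counting error of the CD3 sum nor a shift of most genes was thus covered. Standard errors were taken as the log2 fold change over the square root of F, and 95% intervals use 1.96 of them. Counting errors cover counting only. Pair shares used exact permutation tests. Alternatives used limma 3.58.1 and DESeq2 1.42.0. Positions are from GENCODE vM21 (GRCm38).

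The genes, lists, yardsticks and tests were chosen with earlier results of these data known. Named genes are the 9, up to 4 of each list with the smallest p per comparison (some are given by count only, and one result is not reported here), the genes of the pairs, and the 2 nearest profiles per gene. Cd48, Alcam and Slamf6 between groups where they fell outside that rule were chosen after their values were seen. The listed names Rlk and Sts1 are older symbols of Txk and Ubash3b and were not found. Within groups no pair of libraries was alike within sampling error (chi-square over degrees of freedom 1.62 to 3.74), so none was a plain copy of another. Each was treated as 1 replicate, but this check cannot show that libraries come from separate animals.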

Additional observations from a re-analysis of the deposited data

Results flagged for a closer look

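In 46 groups of 4 or 5 libraries examined for a value that stands apart from the rest (Dixon's test at the 95% level), 3 values did so, where chance gives about 1 in 20. Cd5 in lymph node Treg replicate 2 read 533.4 CPM, against 486.6 to 490.8 in the other libraries of the group, and 42.7 counts per 100 CD3 counts, against 39.0 to 39.4. Cd6 in lymph node Treg replicate 4 read 441.5 CPM, against 458.4 to 459.7 in the others. Without any 1 library, the log2 fold change of Cd5 in tumor pTreg against lymph node Treg was -2.44 to -2.39, and that of Cd6 -1.75 to -1.72.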

How the results depend on the processing

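Relative to the whole library, all 9 genes kept their direction and call with RLE factors, library totals, no filter, a higher filter, DESeq2, limma on FPKM, the compared groups only and each library left out. Scaling to the receptor constant regions, which by construction gives levels per receptor transcript, turned many of them. For tumor pTreg against tumor tTreg the log2 fold changes became -2.36 (Lcp2), -1.09 (Fyn), -0.37 (Cd2) and -0.019 (Cd5). For tumor pTreg against lymph node Treg they became 0.25 (Lck), 0.96 (Zap70), 0.43 (Lat), 1.73 (Lcp2), 0.60 (Fyn), 0.16 (Cd2), 0.10 (Cd5) and 0.79 (Cd6). In tumor tTreg, set against lymph node Treg, they became 0.35 (Zap70), 4.09 (Lcp2), 1.70 (Fyn), 0.53 (Cd2), 0.12 (Cd5) and 0.51 (Cd6).

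Relative to CD3, the 5 genes called between the tumor groups became 8 on the constant regions, 5 higher and 3 lower. Of all genes, 15265 were called on the constant regions, against 15366 per CD3 count and 8184 by whole library. Values that changed sign there were 0.56 (Lck), 0.59 (Lat), 0.50 (Prkcq) and 0.28 (Cd6), with 0.015 (Lck) and 0.048 (Lat) without Cd247, and 0.025 (Lck) and 0.061 (Lat) on Trbc2. Against lymph node Treg, tumor pTreg read 0.25 (Lck), 0.16 (Cd2) and 0.10 (Cd5) on the constant regions and 0.60, 0.51 and 0.45 on Trbc2, and tumor tTreg -0.16 (Lat, constant regions) and 0.58 (Lck, Trbc2). Limma on FPKM called 5 of the counterparts between the tumor groups, against 8. Why the yardsticks differ was not tested.

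With each library left out, values per CD3 count for tumor pTreg against tumor tTreg ran over -0.088 to 0.055 (Lck), -0.024 to 0.080 (Zap70) and -0.058 to 0.040 (Lat), and Lck over -0.118 to 0.026 for tumor tTreg against lymph node Treg. Differences in pair shares, in percentage points, ran over -29.4 to -27.5 (Fyn), -39.6 to -38.4 (Syk), -56.2 to -55.3 (Lat2), -9.58 to -8.91 (Blnk) and -5.90 to -5.81 (Prkcd) between the tumor groups. For tumor pTreg against lymph node Treg they ran over 5.09 to 6.35, 52.3 to 53.5, 22.9 to 23.5, 16.8 to 17.5 and 62.8 to 63.5 in the same order of pairs. Adjusted p went up to 0.1, since smaller groups allow no smaller p.

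Replicate numbers are shared between groups. Same-numbered deviations correlated at -0.0647 to 0.0816 over 9621 genes, and at -0.0647 to 0.02 between the tumor groups. In groups of 3 to 5 libraries, low correlations cannot show whether same-numbered tumor libraries came from the same hosts. With the replicate block all 9 genes were called relative to the whole library, 5, 7 and 7 were called per CD3 count in the 3 comparisons, 7495 genes were called between the tumor groups, and Zap70 per CD3 count read -0.018 there. The precision of values per CD3 count in tumor tTreg is limited by the 353 to 430 CD3 counts per library.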
